A study of Mus musculus with 10 samples.

Results

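COMPASS complexes (complexes of proteins associated with Set1) methylate lysine 4 of histone H3, and the genes described here encode subunits around their catalytic proteins, most of which belong to some COMPASS complexes and not to others. The rows of Cxxc1, Wdr82, Men1, Psip1, Hcfc1, Pagr1a, Paxip1, Ncoa6 and Dpy30 were taken by symbol, and all 9 were present among the 24411 genes listed. Mice had received paclitaxel (5 libraries) or vehicle (5 libraries), and mRNA of the lumbar spinal cord was sequenced. Paclitaxel is a microtubule-stabilising cancer drug that causes a painful peripheral neuropathy, and the study is about the receptor gene Calcrl and the methyltransferase MLL2 in this model. The labels name no strain, sex, age, dose, route or time after treatment. They also do not say whether each library came from its own animal, so the p-values cover the spread among these libraries alone, which may be technical.

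The COMPASS family comprises several complexes built on a shared core of WDR5, RBBP5, ASH2L and DPY30. SET1 complexes, which carry CXXC1 and WDR82, place most of the trimethyl mark at active promoters. Complexes of KMT2A and KMT2B bind menin and are directed to particular promoters, and complexes of KMT2C and KMT2D carry PAXIP1, PAGR1 and NCOA6 and act mostly at enhancers. MLL2 has served as a name for both KMT2B and KMT2D, so both kinds of complex bear on the study's question. By this textbook composition Dpy30 belongs to every COMPASS complex and Hcfc1 to both the SET1 and the menin complexes, so neither is specific to 1 complex.

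Promoter sequence was a property that the choice of genes did not use. RefSeq windows on GRCm38.p6, the assembly that mm10 names, run from 250 bases before to 50 bases after a start site. For 7 of the 9 genes, 12 windows were analysed. Each was searched on both strands for ACTACAA, the core of the element through which ZNF143 and THAP11 bring HCFC1 to promoters, for GCATGCG, the core of the element of the respiratory factor NRF1, and for CCGGAAG, an element of ETS factors such as GABPA. All 3 Men1 windows, which overlap each other, held ACTACAA, which was present in 3.24% of all 32851 windows in the table. The windows of Pagr1a and Paxip1 both held GCATGCG, present in 3.58% of all windows, at 2 places in Pagr1a and 1 in Paxip1. The Hcfc1 window held CCGGAAG, present in 8.86% of all windows. The windows of Wdr82, Ncoa6 and Dpy30 held none of these sequences. Both GCATGCG and CCGGAAG contain CG, and their shares among windows of like CG count were not computed. Whether these elements bear on how the genes are regulated was not tested. The stretches below show the matches in Men1, Pagr1a and Paxip1, with matches on either strand in capitals, and all lie before the start site of their own window. The table's start site is not always the outer end of the gene as printed here: for Paxip1 it lies inside the gene, so that the last bases of its stretch do too, and the windows of Hcfc1 and Ncoa6 lie wholly inside the gene.
Men1, chr19:6334779-6334888, plus strand: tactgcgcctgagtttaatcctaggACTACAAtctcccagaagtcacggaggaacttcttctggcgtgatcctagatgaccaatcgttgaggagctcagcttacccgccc
Pagr1a, chr7:127017384-127017493, minus strand: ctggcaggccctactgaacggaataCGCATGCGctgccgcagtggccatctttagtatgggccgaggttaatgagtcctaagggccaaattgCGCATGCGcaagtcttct
Paxip1, chr5:27791642-27791751, minus strand: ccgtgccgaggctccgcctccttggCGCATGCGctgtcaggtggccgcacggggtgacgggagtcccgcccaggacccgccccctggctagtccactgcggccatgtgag
The matched letters read the same way in Pagr1a and Paxip1 because CGCATGCG is its own reverse complement. Counts of the dinucleotide CG, the target of CXXC1, ranged more widely. Wdr82 and Paxip1 each had 28 CG in 300 bases, Hcfc1 21, Pagr1a 15 and the 3 Men1 windows 11, 16 and 16, against a median of 7 over all windows. The Ncoa6 window, far inside the gene, had 1 CG, and the 5′ end of that gene was not analysed here. Of the 4 Dpy30 windows, 3 inside the gene had 30, 34 and 39 CG, and the one at its outer end had 1.

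Library totals ran from 3676259 to 5432072 counts with paclitaxel and from 4585899 to 7791594 counts with vehicle. Defining markers of neurons, motor neurons, oligodendrocytes, astrocytes, microglia, endothelium and lumbar cord all had counts, and the summed levels of each list overlapped between the groups. Of the markers of dorsal root ganglion neurons, Mrgprd was at 0 in every library, and the sum of that list was at most 0.36 CPM (counts scaled to a common library size). Paclitaxel replicate 3 stood apart in 6 glucocorticoid response genes, at a sum of 842 CPM against at most 375 CPM in the other libraries. Vehicle replicate 4 stood apart in 6 genes of meninges and fibroblasts, at 72.5 CPM against at most 60.1 CPM, and in 5 heat shock genes, at 584 CPM against at most 465 CPM. The heat shock sums ran from 281 to 436 CPM with paclitaxel and from 431 to 584 CPM with vehicle, and the part of this difference in the values given here was not tested. Paclitaxel replicate 1 stood apart in 5 blood genes, at a sum of 276 CPM against at most 227 CPM, within ranges of 62.1 to 276 CPM with paclitaxel and 126 to 227 CPM with vehicle. It was also the lowest library for Cxxc1, whose log2 fold change was -0.21 without it. The share of libraries held by GC-rich genes also differed between libraries and is given beside the results it touches.

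Set against vehicle, 0 of the 9 genes passed at an adjusted p of 0.05 with paclitaxel (quasi-likelihood test of edgeR), where 0.00% of the 13287 genes tested passed. DESeq2 and limma-voom likewise passed 0 of the 9, and over all genes DESeq2 passed 1 (Klf4). Lowest in p was Cxxc1, whose groups did not overlap and whose paclitaxel mean was 0.83 of the vehicle mean. At an unadjusted p under 0.05 there was 1 of 9, Cxxc1, where 6.07% of all genes tested reached that level. That count was 2 without paclitaxel replicate 4 and 3 without either paclitaxel replicate 5 or vehicle replicate 1. The share of all genes tested at that level was then 6.10%, 6.80% and 9.78%. Groups did not overlap in 1 of 9, again Cxxc1, against 1.09% of all genes tested. Counting only genes lower with paclitaxel, the background at an unadjusted p under 0.05 was 3.12%. Fold changes were below 0 in 7 of 9 and above 0 in 2, against 50.9% of all genes tested below 0. The median log2 fold change over the 9 was -0.06, beside -0.003 over all genes tested, and the median size without sign was 0.07 beside 0.08. All 9 passed the filter on low counts in both groups, with single-library counts from 57 (Dpy30) to 1223 (Psip1), so none entered through 1 group alone. In whole tissue, fewer cells of a type and less RNA per cell cannot be told apart.

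**Figure D1:**
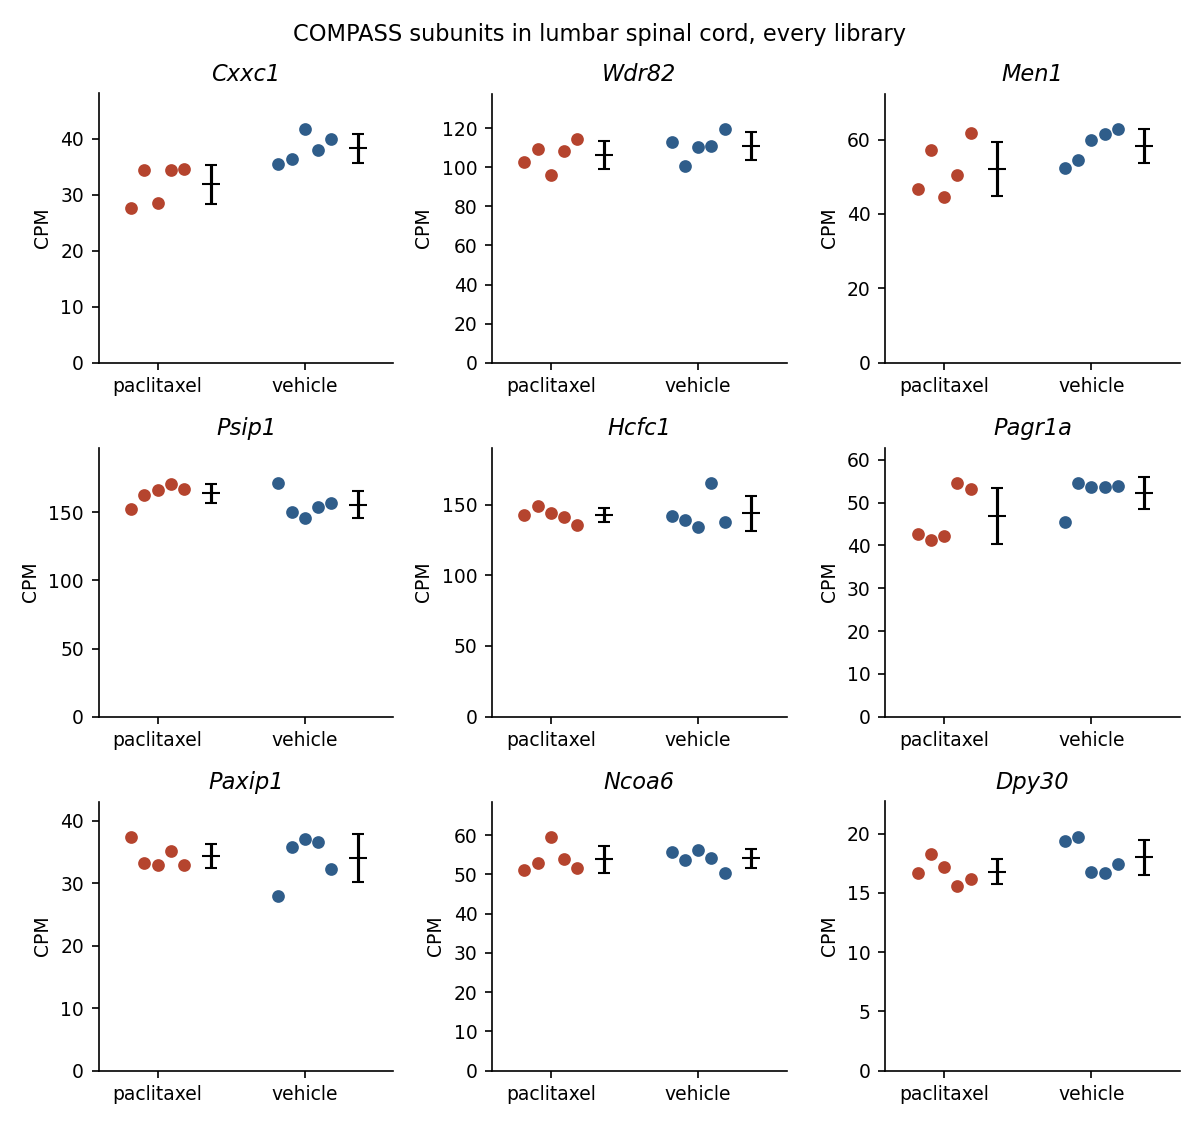
CPM of the 9 subunit genes in every library (points, replicates 1 to 5 from left to right) with the group mean and SD (black) for paclitaxel and vehicle; each axis starts at 0. The Cxxc1 groups do not overlap, with 34.5 CPM in the highest paclitaxel library and 35.4 CPM in the lowest vehicle library, while the groups of the other 8 genes overlap.

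Cxxc1 encodes the CpG-binding subunit that anchors SET1 complexes at unmethylated CpG islands (chr18:74216212-74221493). It was at 27.7, 34.4, 28.4, 34.4 and 34.5 CPM in paclitaxel replicates 1 to 5, and at 35.4, 36.3, 41.8, 38.0 and 39.9 CPM in vehicle replicates 1 to 5. Every paclitaxel library lay below every vehicle library, with replicates 1 and 3 lowest, and the gap between the groups was small beside their spread. With paclitaxel the mean was 31.9 ± 3.50 CPM, and with vehicle it was 38.3 ± 2.59 CPM (SD over 5 libraries each). This gave a log2 fold change of -0.26 (SE 0.09, 95% interval -0.44 to -0.08), ranked 99 by p among 13287 genes, and did not pass (edgeR unadjusted p = 0.00679, adjusted p = 0.792). Counts of 118 to 311 per library give a counting error of 8.31% with paclitaxel and 6.94% with vehicle, beside an observed coefficient of variation of 10.98% and 6.77%.

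Wdr82 encodes the WD-repeat subunit through which SET1 complexes bind RNA polymerase II, and its protein also serves in complexes of PPP1R10 and ZC3H4 that end transcription. The gene (chr9:106170925-106191706) also hosts the microRNA gene Mirlet7g. Its level ran from 95.9 to 114.7 CPM with paclitaxel and from 100.4 to 119.8 CPM with vehicle, so the groups overlapped. Fitted by edgeR, Wdr82 had a log2 fold change of -0.06 (SE 0.06, adjusted p = 0.876), with a 95% interval of -0.19 to 0.07, and of -0.03 without paclitaxel replicate 3. The ratio of Cxxc1 to Wdr82 within a library does not depend on how libraries are scaled. It does keep any trend with GC content (58.4% in Cxxc1, 48.1% in Wdr82) and was not corrected for that. On the log2 scale the ratio averaged -1.73 ± 0.09 with paclitaxel and -1.53 ± 0.11 with vehicle (SD, n = 5 each). The ratio was below every vehicle library in 3 of 5 paclitaxel libraries, and vehicle replicate 1, at -1.66, lay within the paclitaxel range of -1.88 to -1.65. Bod1, Bod1l, Ppp1r10, Tox4, Ppp1ca, Zc3h4, Srrt and Dnmt1, whose proteins bind those of Cxxc1 or Wdr82 or share a complex with them, had 3 members higher and 5 lower, from -0.09 to 0.08. In edgeR 0 of 8 passed, and 0 of 8 had an unadjusted p under 0.05. Lowest in p were Tox4, a subunit of the PPP1R10 phosphatase complex (0.08), the maintenance DNA methyltransferase gene Dnmt1 (-0.08), the RNA-processing factor gene Srrt (-0.07) and the SET1B-linked gene Bod1 (-0.07).

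Men1 encodes menin, the adaptor that joins KMT2A and KMT2B to chromatin partners and a tumour suppressor of endocrine tissue (chr19:6334979-6340894). It was at 46.6, 57.1, 44.6, 50.5 and 61.8 CPM in paclitaxel replicates 1 to 5, and at 52.4, 54.5, 59.8, 61.4 and 62.9 CPM in vehicle replicates 1 to 5. Of the paclitaxel libraries, replicates 1, 3 and 4 lay below every vehicle library, and replicates 2 and 5 lay among the vehicle libraries. With paclitaxel the mean was 52.1 ± 7.23 CPM, and with vehicle it was 58.2 ± 4.54 CPM (SD over 5 libraries each). Men1 had a log2 fold change of -0.15 (SE 0.09), with a 95% interval of -0.33 to 0.03 and an adjusted p of 0.803 in edgeR. It was -0.10 without paclitaxel replicate 3, the library with the high glucocorticoid response genes, and -0.08 without both that library and vehicle replicate 4. In the other direction it was -0.23 without paclitaxel replicate 5 and -0.19 without paclitaxel replicate 2.

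Psip1 encodes LEDGF/p75, which tethers menin and KMT2A to nucleosomes marked by methylation of lysine 36 of histone H3 (chr4:83455680-83486463). Its level ran from 152.6 to 170.8 CPM with paclitaxel and from 146.1 to 171.7 CPM with vehicle. The groups overlapped, with 4 of 5 paclitaxel libraries above the vehicle mean and vehicle replicate 1 the highest of all 10 libraries. Psip1 had a log2 fold change of 0.07 (SE 0.06), with a 95% interval of -0.04 to 0.19 and an adjusted p of 0.834 in edgeR, and of 0.12 without vehicle replicate 1. A part of the Psip1 value is uncertain because Snapc3 overlaps it on the opposite strand. Snapc3 was at a mean of 6.90 CPM with paclitaxel and 7.49 CPM with vehicle, beside 164 and 156 CPM for Psip1. Whether the counting used strand is not stated, so reads of the overlap cannot be told apart. The log2 ratio of Men1 to Psip1 averaged -1.65 ± 0.19 with paclitaxel and -1.41 ± 0.18 with vehicle (SD, n = 5 each). The groups overlapped, and this ratio too was not corrected for GC content (58.3% in Men1, 43.8% in Psip1). Among 9 genes of menin and LEDGF partners, 5 were higher and 4 lower, from -0.13 to 0.18. In edgeR 0 of 9 passed, and 0 of 9 had an unadjusted p under 0.05. The lowest p in that list belonged to Mllt3, a reader of acetylated histones in elongation complexes, with a mean of 30.3 ± 1.11 CPM under paclitaxel and 26.7 ± 2.73 CPM under vehicle (SD over 5 libraries each) and a fold change of 0.18 on the log2 scale (SE 0.09). Next were the LEDGF relative Hdgf (-0.10), the elongation scaffold gene Aff4 (0.09) and the LEDGF relative Hdgfl2, listed as Hdgfrp2 (-0.13). Of 3 genes known to need menin in other tissues, 2 were tested, Cdkn1b (0.10) and Meis1 (-0.06), and neither passed, while Cdkn2c was below the filter.

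Hcfc1 encodes host cell factor HCF-1, a scaffold that links SET1 and menin complexes to promoter-bound factors and to the sugar transferase OGT (chrX:73942792-73966995). It was at 142.5, 149.2, 144.3, 141.6 and 135.6 CPM in paclitaxel replicates 1 to 5, and at 142.3, 138.9, 134.4, 165.6 and 137.8 CPM in vehicle replicates 1 to 5. Vehicle replicate 4, the library with the high meningeal and heat shock genes, was the highest, and the other 9 libraries lay between 134.4 and 149.2 CPM. In edgeR, Hcfc1 stood at -0.0098 on the log2 scale (SE 0.06, adjusted p = 0.988), with a 95% interval of -0.14 to 0.12, and at 0.05 without vehicle replicate 4. The interval leaves out a fold above 1.08 or below 0.91. Of 12 genes, made up of HCF-1 partners and Mmachc, a cobalamin gene that depends on HCF-1, 4 were higher and 8 lower, from -0.20 to 0.26, and 0 of 12 passed in edgeR. At an unadjusted p under 0.05 there was 1 of 12, beside 6.07% of all genes tested. It was Creb3, a membrane-bound factor that binds HCF-1, with a mean of 31.0 ± 3.36 CPM under paclitaxel and 35.6 ± 2.23 CPM under vehicle (SD over 5 libraries each). Creb3 had a log2 fold change of -0.20 (SE 0.09), with an adjusted p of 0.792 in edgeR. Mmachc had a log2 fold change of 0.26 (SE 0.13), the cell cycle repressor gene E2f4 of -0.20 (SE 0.10) and the ETS factor gene Gabpa of 0.13 (SE 0.09).

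Pagr1a encodes PA1, the small partner of PAXIP1 in KMT2C and KMT2D complexes (chr7:127015051-127017352). It was at 42.7, 41.2, 42.2, 54.6 and 53.2 CPM in paclitaxel replicates 1 to 5, and at 45.6, 54.7, 53.7, 53.6 and 54.0 CPM in vehicle replicates 1 to 5. Paclitaxel replicates 1, 2 and 3 lay below every vehicle library, replicates 4 and 5 lay among the vehicle libraries, and 4 of 5 vehicle libraries fell within 53.6 to 54.7 CPM. With paclitaxel the mean was 46.8 ± 6.53 CPM, and with vehicle it was 52.3 ± 3.79 CPM (SD over 5 libraries each). Pagr1a had a log2 fold change of -0.16 (SE 0.09), with a 95% interval of -0.35 to 0.02 and an adjusted p of 0.80 in edgeR.

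Paxip1 encodes PTIP, a BRCT-domain protein of KMT2C and KMT2D complexes that also acts with 53BP1 at DNA breaks (chr5:27740080-27791672). Its level ran from 32.9 to 37.5 CPM with paclitaxel and from 28.02 to 37.2 CPM with vehicle, with vehicle replicate 1 the lowest of all 10 libraries. In edgeR, Paxip1 stood at 0.02 on the log2 scale (SE 0.09, adjusted p = 0.987), with a 95% interval of -0.17 to 0.20, and at -0.04 without vehicle replicate 1. The log2 ratio of Pagr1a to Paxip1 averaged 0.43 ± 0.21 with paclitaxel and 0.62 ± 0.09 with vehicle (SD, n = 5 each). It was below every vehicle library in paclitaxel replicates 1, 2 and 3 (0.18, 0.31 and 0.36). In paclitaxel replicates 4 and 5 it lay among the vehicle libraries (0.63 and 0.68). Like the others, this ratio was not corrected for GC content (58.9% in Pagr1a, 50.3% in Paxip1).

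Ncoa6 encodes a nuclear receptor coactivator that brings KMT2C and KMT2D complexes to receptor-bound enhancers (chr2:155390656-155473911, with the pseudogenes Gm17959 and Gm14239 inside its span). Its level ran from 51.1 to 59.6 CPM with paclitaxel and from 50.4 to 56.3 CPM with vehicle, and the groups overlapped. In edgeR, Ncoa6 stood at -0.003 on the log2 scale (SE 0.07, adjusted p = 0.996), with a 95% interval of -0.15 to 0.14, and at -0.04 without paclitaxel replicate 3. The interval leaves out a fold above 1.10 or below 0.90. Of 12 genes of receptors, coactivators and 53BP1 factors linked to PAXIP1, PAGR1 and NCOA6, 6 were higher and 6 lower, from -0.26 to 0.13. In edgeR 0 of 12 passed, and 1 of 12 had an unadjusted p under 0.05, beside 6.07% of all genes tested. That gene's groups also did not overlap, as in 1.09% of all genes tested. It was the retinoid X receptor gene Rxrb, with a mean of 49.6 ± 1.67 CPM under paclitaxel and 59.3 ± 4.05 CPM under vehicle (SD over 5 libraries each). Rxrb had a log2 fold change of -0.26 (SE 0.07), with an unadjusted p of 0.00121 and an adjusted p of 0.792 in edgeR. The acetyltransferase gene Ep300 (0.12), the receptor gene Rxra (-0.10) and the coactivator gene Ncoa3 (-0.10) were next in p.

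Dpy30 encodes the small core subunit that binds ASH2L and raises methylation by every COMPASS complex (chr17:74299474-74323944). Its level ran from 15.6 to 18.3 CPM with paclitaxel and from 16.7 to 19.7 CPM with vehicle. The groups overlapped, with 3 of 5 paclitaxel libraries below every vehicle library and vehicle replicates 1 and 2 highest. Dpy30 had a log2 fold change of -0.10 (SE 0.10), with a 95% interval of -0.31 to 0.11 and an adjusted p of 0.876 in edgeR, and of -0.06 without vehicle replicate 2. Its counts, 57 to 136 per library, were the lowest of the 9, and a counting error of 11.4% with paclitaxel and 10.2% with vehicle was larger than the observed coefficients of variation of 6.26% and 8.08%. On the linear scale the Dpy30 interval ran from 0.805 to 1.08 of the vehicle level.

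**Figure D2:**
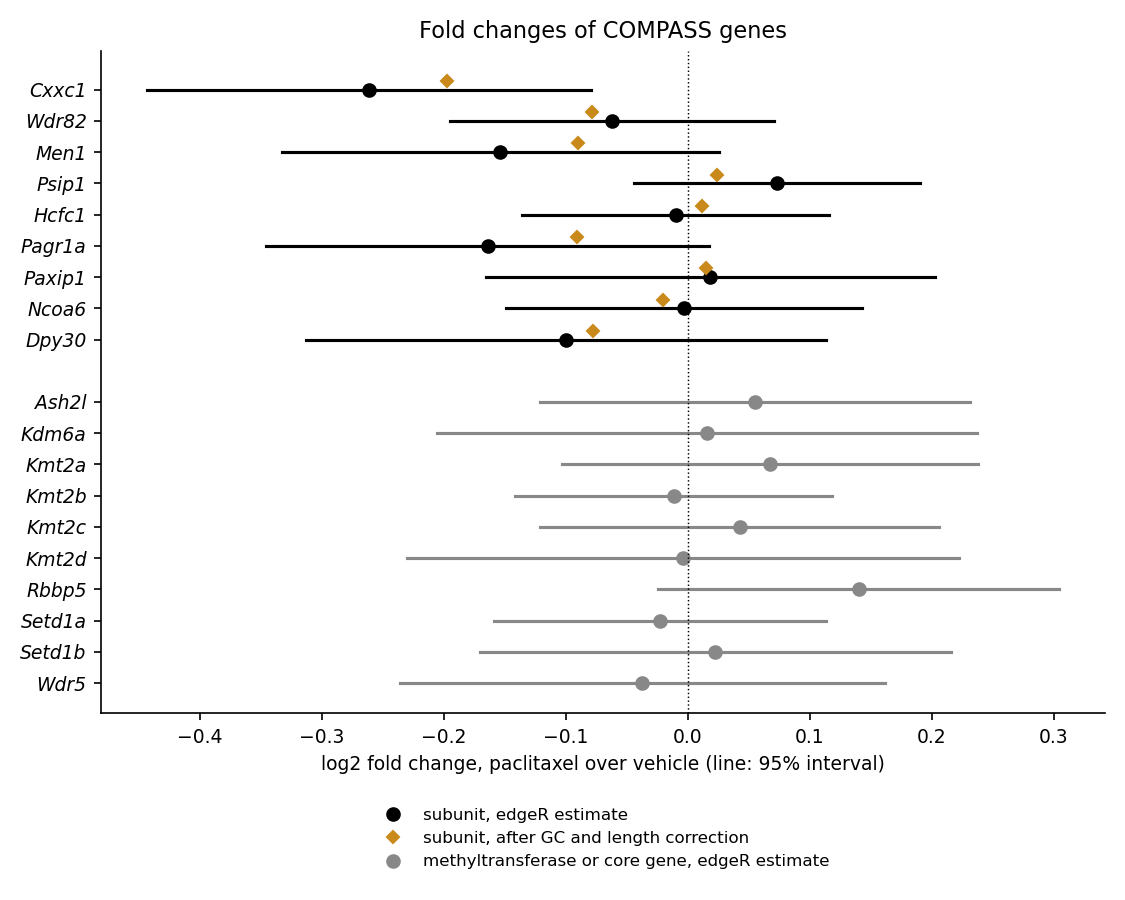
Log2 fold changes of paclitaxel over vehicle with 95% intervals (lines) for the 9 subunit genes (black), with the estimate after correction for GC content and transcript length (diamonds). The 10 genes in grey are methyltransferase and core genes and Kdm6a. The Cxxc1 interval, -0.44 to -0.08, is the only one drawn that does not reach 0; after the correction Cxxc1 is at -0.20, Men1 and Pagr1a at -0.09 and Psip1 at 0.02.

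The methyltransferase and core genes of the same complexes were set beside the 9, together with Kdm6a, which is neither. Of Setd1a, Setd1b, Kmt2a, Kmt2b, Kmt2c, Kmt2d, Kdm6a, Wdr5, Rbbp5 and Ash2l, 6 were higher and 4 lower, from -0.04 to 0.14 with a median of 0.02, and 0 of 10 passed in edgeR. At an unadjusted p under 0.05 there were 0 of 10, and groups did not overlap in 0 of 10. The SET domain genes Setd1a and Setd1b, whose proteins are the catalytic subunits that CXXC1 joins, were at -0.02 and 0.02 on the log2 scale. The core genes Rbbp5 (0.14, SE 0.08) and Ash2l (0.06, SE 0.09) and the methyltransferase genes Kmt2a (0.07, SE 0.08) and Kmt2c (0.04, SE 0.08) had the lowest p. Whether Cxxc1 differed from these genes in its response was not tested.

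The 3 genes of lowest fold change were rich in GC, and the GC balance differed between libraries. An association of the levels with that balance over libraries was not computed. Cxxc1, Men1 and Pagr1a had transcripts of 58.4%, 58.3% and 58.9% GC and were among the 2649 genes richest in GC when the tested genes were split by GC content into 5 equal groups. The median log2 fold change of those 2649 genes was -0.07, beside 0.07 in the group poorest in GC, which held Psip1 (43.8% GC). Relative to the vehicle mean, GC-rich genes minus GC-poor genes stood at -0.17, -0.02, -0.32, -0.11 and -0.10 on the log2 scale in paclitaxel replicates 1 to 5, and at -0.24, 0.04, 0.12, 0.02 and 0.06 in vehicle replicates 1 to 5. All 5 paclitaxel libraries were thus below 0, as was vehicle replicate 1, and the other 4 vehicle libraries were above 0. Vehicle replicate 1 was also the lowest vehicle library for Cxxc1, Men1 and Pagr1a and the highest for Psip1. The same library was the lowest of all for Paxip1, which lay in the middle group by GC content (50.3% GC). After a loess correction of each library for GC content and transcript length, the log2 fold change of Cxxc1 was -0.20 (edgeR unadjusted p = 0.017, adjusted p = 0.988), of Men1 and Pagr1a -0.09 each and of Psip1 0.02. The Cxxc1 groups still did not overlap then, from 4.86 to 5.14 log2 CPM with paclitaxel and from 5.15 to 5.30 log2 CPM with vehicle. In the corrected fit 4.58% of all genes tested had an unadjusted p under 0.05. The share of all genes whose groups did not overlap after the correction was not counted. What part the GC balance had in the Cxxc1, Men1, Pagr1a and Psip1 values was not tested further.

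**Figure D3:**
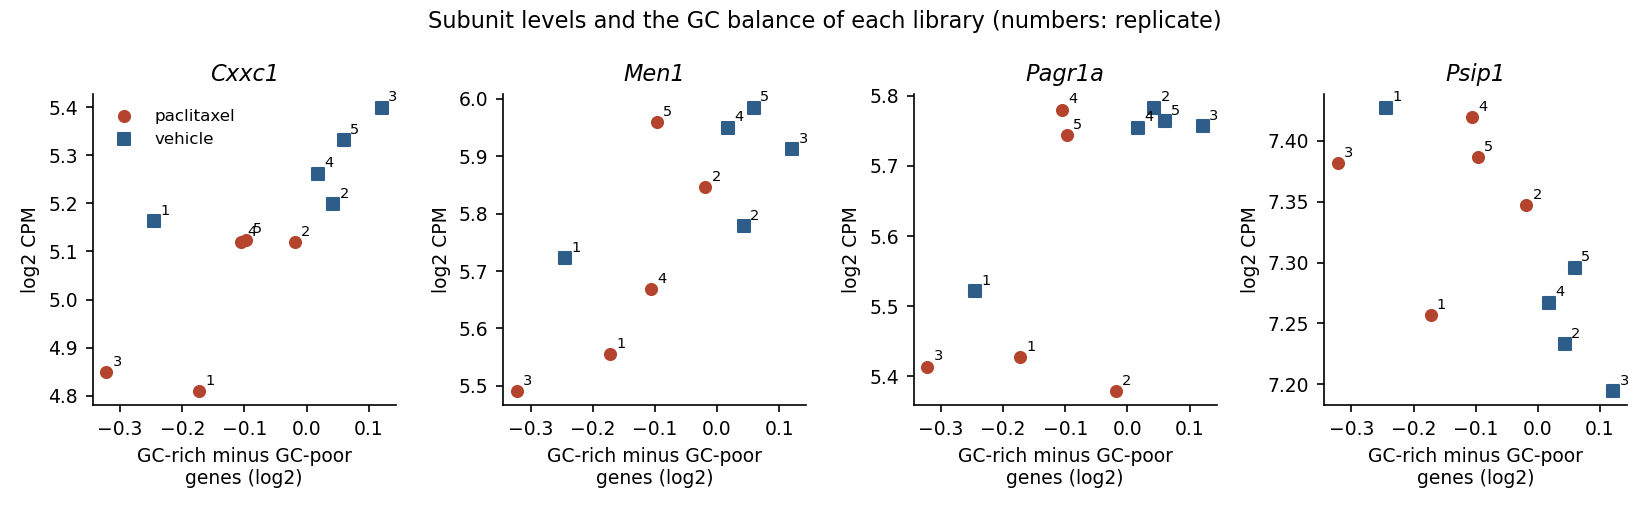
Log2 CPM of Cxxc1, Men1, Pagr1a and Psip1 (vertical axes) against each library's median of GC-rich minus GC-poor genes, relative to vehicle (horizontal axes, log2; numbers are replicates). Paclitaxel replicate 3 (-0.32), vehicle replicate 1 (-0.24) and paclitaxel replicate 1 (-0.17) are farthest left, and in these 3 libraries Pagr1a has 42.2, 45.6 and 42.7 CPM. The lowest Pagr1a library, paclitaxel replicate 2 at 41.2 CPM, lies near 0 (-0.02).

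Levels of different genes were compared per kilobase (kb) of transcript. Psip1 was the most abundant, at 63.6 ± 2.70 CPM per kb with paclitaxel and 60.5 ± 3.82 CPM per kb with vehicle (SD, n = 5 each), above 91.4% of 13244 tested genes with a length. Pagr1a followed at a mean of 35.1 CPM per kb over the 10 libraries, then Wdr82 at 29.0, Dpy30 at 24.5, Men1 at 20.1, Hcfc1 at 17.6, Cxxc1 at 13.4, Ncoa6 at 7.85 and Paxip1 at 5.84. The ranges over the 10 libraries did not overlap between Psip1 and Pagr1a, Hcfc1 and Cxxc1, Cxxc1 and Ncoa6, or Ncoa6 and Paxip1. They overlapped between the neighbours from Pagr1a to Hcfc1, and Men1 was above Hcfc1 in 8 of 10 libraries. Partners in 1 complex could lie far apart in this order, with Pagr1a next to the top and Paxip1 at the bottom. The methyltransferase genes ran from 5.74 CPM per kb for Setd1b, next to Paxip1, to 12.7 CPM per kb for Kmt2a, next to Cxxc1. Lengths are means over matched transcripts, and for Psip1 these ran from 1898 to 3251 bases and for Dpy30 from 622 to 789 bases, which limits their place in the order.

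**Figure D4:**
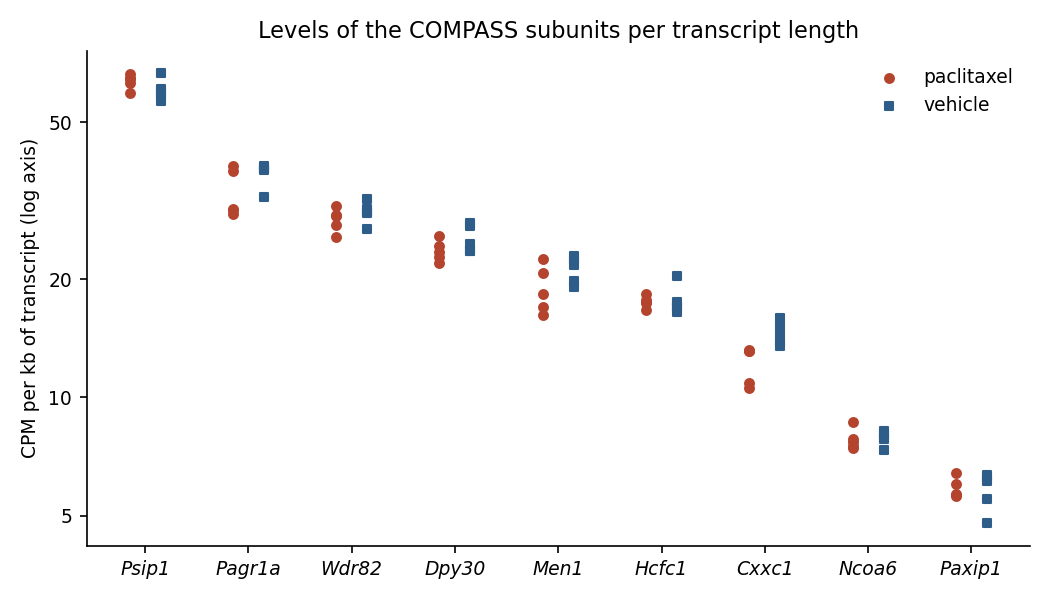
CPM per kb of transcript on a log axis for the 9 subunit genes in every paclitaxel (circles) and vehicle (squares) library, ordered by the mean over the 10 libraries. Psip1, at 56.7 to 66.7 CPM per kb, lies above all others, and Paxip1, at 4.79 to 6.41 CPM per kb, lies lowest.

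The profiles of the 9 genes over the libraries were compared in pairs. Likeness was measured as the root mean square difference of log2 CPM over the 10 libraries, each gene centred on its own mean. The smallest differences were between Psip1 and Ncoa6 (0.10) and between Cxxc1 and Men1 (0.10). The largest was between Cxxc1 and Psip1 (0.22). Counting error adds to such differences, and those between other pairs of genes were not computed. No conclusion on joint or separate movement is therefore drawn. A small difference also arises between genes that vary little. The root mean square around the own mean was 0.08 for Psip1 and 0.07 for Ncoa6, below their difference from each other. For Cxxc1 and Men1 it was 0.18 and 0.17. Over all genes of at least 10 CPM, the profiles most like that of Cxxc1 were those of Ccdc85b (0.06) and Zfp219 (0.07), whose transcripts had 54.4% and 62.6% GC. For Men1 they were Meis3 (0.06, 58.5% GC) and Mypop (0.06, 63.9% GC), and for Pagr1a Romo1 (0.06, 61.1% GC) and Ube2m (0.07, 58.7% GC). For Psip1 they were Slc12a2 (0.03, 44.2% GC) and Spock3 (0.04, 37.3% GC). The nearest to Wdr82 (48.1% GC) were Slc41a1 (0.03, 54.1% GC) and Lcmt1 (0.05, 51.5% GC), and to Hcfc1 (54.4% GC) Ankrd11 (0.05, 54.8% GC) and Tmem43 (0.05, 51.5% GC). The nearest to Paxip1 (50.3% GC) were Spns1 (0.05, 59.2% GC) and Ints3 (0.06, 54.1% GC), and to Ncoa6 (48.9% GC) Aebp2 (0.03, 46.2% GC) and Rbpj (0.04, 43.7% GC). The nearest to Dpy30 (47.6% GC) were G6pdx (0.06, 52.6% GC) and Cmtr1 (0.06, 52.7% GC), so that a near profile did not always go with a like GC content. None of these 18 genes belonged to the lists of COMPASS genes and partners. Those lists are short beside the genes searched, so no conclusion is drawn from this.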

How the data were processed

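For each gene and library the authors deposited an unscaled expected count. The tools named, per the submitters' processing notes, were RSEM, STAR and edgeR 4.2.0, on build mm10; their other versions, the annotation and the strand setting are not stated. Of the values 5.04% were not whole (0 for the 9 genes), and all were rounded before testing. In edgeR 4.0.16 (R 4.3.3), filterByExpr (minimum count 10, minimum total 15), TMM factors and the robust quasi-likelihood test without covariates were used, with Benjamini-Hochberg adjustment over 13287 genes, two-sided, at 0.05. CPM use TMM-scaled library sizes, and log2 CPM add a prior count of 2. Standard errors are the absolute log2 fold change over the root of F, with intervals at 95%. Counting error is the square root of the mean inverse count and covers counting only. No pair of libraries within a group was as alike as counting noise alone allows (chi-square over degrees of freedom 1.63 to 6.88). Lengths, GC content (99.7% of tested genes) and strands come from GENCODE M21 and coordinates from RefSeq, both on GRCm38. Alternatives included DESeq2 1.42.0 and limma 3.58.1. The functions were also run on simulated data, whose outcome is not given here and on which no result rests.

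The genes and lists were chosen with earlier results of these data known. Named genes were the 9, the up to 4 of lowest p in each partner list, and the 2 most alike profiles per gene. Creb3, Rxrb, Setd1a and Setd1b were singled out after their values were seen, Creb3 and Rxrb also being within the rule. A planned search of protein sequences was not run. Psip1 and Cxxc1 promoters were not analysed here.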

Additional observations from a re-analysis of the deposited data

Results flagged for a closer look

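Hcfc1 in vehicle replicate 4, at 166 CPM, stood far above the other vehicle libraries (134.4 to 142.3 CPM). The same library held the highest sums of meningeal and of heat shock genes, at 72.5 and 584 CPM, and their part in the Hcfc1 value was not tested. Pagr1a in vehicle replicate 1, at 45.6 CPM, stood far below the other vehicle libraries (53.6 to 54.7 CPM). In that library GC-rich genes stood 0.24 below GC-poor genes on the log2 scale relative to vehicle, the lowest of the vehicle libraries, and the part of this in the Pagr1a value was not tested. These were 2 of 24 groups examined, and chance alone flags about 1 group in 20.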

How the results depend on the processing

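Under 22 alternatives 0 of the 9 genes passed an adjusted p of 0.05. The count over all genes was 1 with DESeq2 (Klf4), with replicate numbers fitted as a block (Fos) and with that block and the GC and length correction (Fos), and 0 with each library left out in turn. Members at an unadjusted p under 0.05 numbered 1 to 3 with each library left out: Men1 and Pagr1a joined Cxxc1 without paclitaxel replicate 5, Pagr1a without paclitaxel replicate 4, and Psip1 and Pagr1a without vehicle replicate 1. The share of all genes tested at that level ran from 3.82% to 9.78% in the same fits, highest without vehicle replicate 1. Cxxc1 kept its direction and an unadjusted p under 0.05 in all 22 alternatives, from -0.29 to -0.20 (adjusted p 0.41 to 1.00), and was at -0.26 under the replicate block. The alternatives reuse the same libraries, so the Cxxc1 result under them is not independent support. How many other genes stayed under that level throughout was not counted. The median over the 9 ran from -0.08 to -0.03. Values near 0 turned direction. Hcfc1 was at 0.012 after the GC and length correction, 0.015 with the block as well and 0.040 without both paclitaxel replicate 3 and vehicle replicate 4, and ran from -0.030 to 0.048 with each library left out. Paxip1 was at -0.00062 with quality weights per sample (limma-voom) and ran from -0.038 to 0.053. Ncoa6 was at 0.0017 with DESeq2 size factors, 0.0027 with upper-quartile factors and 0.0027 in DESeq2's Wald test, and ran from -0.040 to 0.018. Wdr82 kept its direction in all 22 alternatives, and was at -0.03 with the same weights and -0.03 without vehicle replicate 5. The cause of the turns of Hcfc1, Paxip1 and Ncoa6 was not tested. The replicate numbers share no label beyond the number, same-numbered libraries correlated from -0.10 to 0.14 in their deviations, and the block changed no call of the 9 genes. Counting error was largest for Dpy30, at 11.4% with paclitaxel and 10.2% with vehicle.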
